A study of Rattus norvegicus with 4 samples.

Results

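The 36 genes described here make sterols and fatty acids or regulate and move them, and they were listed by gene symbol for their place in these pathways, with earlier results of these data known. All 36 are among the 15172 genes listed in the deposited table, and all 36 passed the filter on low counts that left 13953 genes for testing. They fall into 7 enzymes of the mevalonate pathway, 11 enzymes of the sterol branch, 5 regulators of the SREBP system, 6 genes of sterol transport and liver X receptor (LXR) signalling, and 7 genes of fatty acid synthesis. Expression was measured by RNA-seq of polyadenylated RNA from INS-1 832/13 rat β-cells, a clonal insulinoma line that responds to glucose, grown in medium with heat-inactivated fetal bovine serum. Control cells received a non-targeting siRNA (siScramble, 2 samples) and Tbk1-depleted cells received a pool of siRNAs against Tbk1 (siTbk1, 2 samples), both with DharmaFECT reagent for 36 h. Each group has a replicate 2 and a replicate 3, and no source used here says whether they came from separate cultures, so p-values measure only the spread between these libraries, which may be technical. The comparison asks how depletion of TBK1, a kinase of innate immune signalling, changed the mRNA of each step of lipid synthesis.

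Cholesterol and isoprenoids are built from acetyl-CoA through the mevalonate pathway, whose product farnesyl diphosphate is joined to squalene and then converted to sterols along the sterol branch. When membranes of the endoplasmic reticulum run short of sterol, SCAP escorts the SREBP transcription factors to the Golgi for cleavage, and SREBP-2 then raises transcription of most enzymes of both parts of the route. INSIG proteins hold SCAP back when sterol is plentiful, and LXR receptors sense oxysterols and raise sterol export. SREBP-1 acts mainly on fatty acid synthesis. In β-cells, cholesterol is a component of the plasma membrane and of the membrane of insulin granules.

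Total counts per library lay between 38428926 and 47759013, and 3 counts corresponded to at most 0.0781 CPM. Levels are CPM (each library's counts divided by its total and multiplied by 1000000), with TMM scaling of library size except for the cell type markers, and are not divided by transcript length, so that a level is compared only with the same gene in another library. Tbk1 itself stood at 53.7 and 52.5 CPM in siScramble replicates 2 and 3 and at 11.8 and 13.3 CPM in siTbk1 replicates 2 and 3, a log2 fold change of −2.08 (standard error 0.076). Of 15 β-cell markers 14 were measured, and their summed level was 20080 to 21080 CPM in control and 15730 to 17370 CPM in siTbk1-treated cells. The difference of Ins1 alone (10510 and 11320 CPM in control, 7407 and 6132 CPM in siTbk1-treated cells) was as large as that of the sum, whereas Scg2 went from 441 and 403 CPM to 845 and 856 CPM and Iapp from 933 and 1009 CPM to 1192 and 1244 CPM. Of 23 markers of other islet, exocrine, immune, vascular and stromal cells 7 were measured. Apart from Gcg, the glucagon gene (1406 and 1341 CPM in control, 803 and 862 CPM in siTbk1-treated cells), all were under 10 CPM. The endothelial marker Kdr measured 8.58 and 9.51 CPM in control and 2.72 and 3.18 CPM in siTbk1-treated cells, and the fibroblast marker Pdgfra 6.83 and 5.46 CPM in control and 8.82 and 8.38 CPM in siTbk1-treated cells. Hhex, Sox9, Cd68 and Lyz2 were each under 0.4 CPM in every library. The part of these marker differences in the results below was not tested.

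The promoters of some of the members are shown first. RefSeq promoter windows of 300 bases, 250 before and 50 after the annotated start, were found for 29 of the 36 members (30 windows, assembly GRCr8). None was found for Stard4, the gene called higher, or for Pmvk, Fdft1, Sqle, Acaca, Fasn and Elovl6. The windows of Hmgcs1 and Mvd, the genes called lower, of Idi1, an enzyme of the same pathway that moved the other way, and of Acss2, which had the largest log2 fold change of the 7 fatty acid synthesis genes, read as follows, 5′ to 3′ on the strand of the gene, with each CCAAT box (CCAAT or its reverse complement ATTGG, the motif bound by NF-Y, a partner of SREBP) in capitals.
Hmgcs1, chr2:53382054-53382353, plus strand: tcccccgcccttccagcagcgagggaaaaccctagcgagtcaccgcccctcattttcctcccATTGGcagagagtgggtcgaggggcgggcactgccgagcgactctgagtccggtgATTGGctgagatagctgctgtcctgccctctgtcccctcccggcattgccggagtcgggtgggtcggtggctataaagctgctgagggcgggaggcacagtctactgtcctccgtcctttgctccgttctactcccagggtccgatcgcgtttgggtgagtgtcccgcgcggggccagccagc
Mvd, chr19:67414925-67415224, minus strand: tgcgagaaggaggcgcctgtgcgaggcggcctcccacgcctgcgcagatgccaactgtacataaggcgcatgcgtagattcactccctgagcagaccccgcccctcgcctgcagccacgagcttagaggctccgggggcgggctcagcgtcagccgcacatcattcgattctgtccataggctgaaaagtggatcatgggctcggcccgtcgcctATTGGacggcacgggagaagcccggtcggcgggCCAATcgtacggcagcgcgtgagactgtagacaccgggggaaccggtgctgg
Idi1, chr17:66547475-66547774, minus strand: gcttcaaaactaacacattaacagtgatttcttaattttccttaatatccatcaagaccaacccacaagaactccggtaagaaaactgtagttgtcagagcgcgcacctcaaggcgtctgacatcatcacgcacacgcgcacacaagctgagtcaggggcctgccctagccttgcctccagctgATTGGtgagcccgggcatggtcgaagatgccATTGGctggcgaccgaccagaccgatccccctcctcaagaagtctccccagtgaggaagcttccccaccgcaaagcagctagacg
Acss2, chr3:164464453-164464752, plus strand: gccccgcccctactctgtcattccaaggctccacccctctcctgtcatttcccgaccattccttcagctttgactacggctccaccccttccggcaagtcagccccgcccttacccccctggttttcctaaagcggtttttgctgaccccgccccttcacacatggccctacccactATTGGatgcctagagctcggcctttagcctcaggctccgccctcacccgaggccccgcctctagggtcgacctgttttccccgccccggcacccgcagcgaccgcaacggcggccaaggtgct

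A CCAAT box on either strand was present in 22 of the 30 member windows (73.3%), against 37.5% of all 33469 windows in the table and 37.2% of the 10858 windows of tested genes. Hmgcs1, Mvd and Idi1 each hold 2 copies and Acss2 holds 1. The windows shown were chosen by the change of their genes, and a link of the motif to the direction of change was not tested. A core sterol regulatory element, searched as CACCCCAC or CACCCCAT on both strands, was found in 3 member windows (10% against 3.73% of all windows and 3.23% of those of tested genes), those of Tm7sf2, Ebp and Srebf2. The E-box CACGTG was found in 4 member windows (13.3% against 6.42% and 8.99%), those of Sc5d, Insig1, Scap and Abca1. No matches of different motifs overlapped in the member windows. Each match describes the letters of the window only. Because only these exact letters were searched, a window without a match may still hold a variant of the motif.

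HMG-CoA synthase mRNA (Hmgcs1) fell to 34.5% of its control level, mevalonate diphosphate decarboxylase (Mvd) fell to 60.3%, and the sterol carrier Stard4 rose 1.51-fold. Genes were called where the edgeR quasi-likelihood (QL) test, adjusted over all tested genes, gave a value under 0.05 and the fold change reached 1.5 (0.58 in size on the log2 scale), which are the limits stated by the study. By this rule 2 of 36 members were called lower (5.56%, against 6.18% of all tested genes) and 1 was called higher (2.78%, against 4.81%), shares close to or below those of all genes. Without the fold change limit, 11 members fell (30.6%, against 24.8% of all genes) and 8 rose (22.2%, against 24.4%). At an unadjusted p under 0.05, 27.9% of all tested genes were lower and 27.5% higher, and counts at that limit are to be read against these shares. In what follows, fell and rose refer to an adjusted p-value under 0.05, and called refers to both limits. The median log2 fold change was −0.07 over the members and 0.01 over all tested genes. For 26 members the 95% interval of the log2 fold change lay wholly inside the 1.5-fold limits, and Hmgcs1 was the 1 member whose interval lay wholly outside them. In bulk RNA, fewer cells with a transcript and less transcript per cell cannot be told apart.

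**Figure D1:**
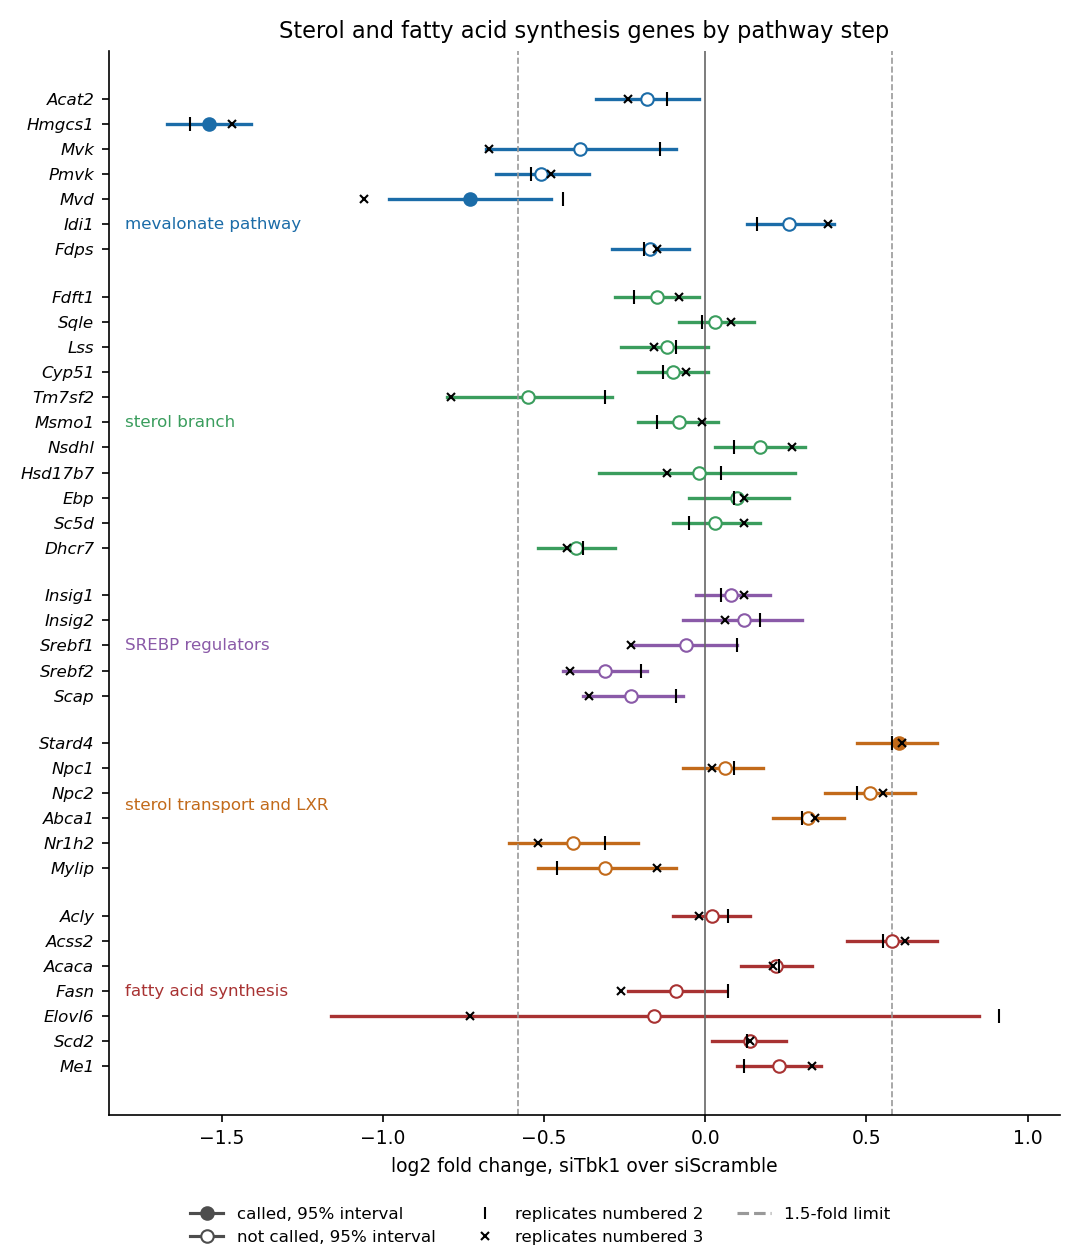
Log2 fold change (siTbk1 over siScramble) of all 36 members, grouped by pathway step from top to bottom; points and bars are the edgeR estimate and its 95% interval, filled where called, and the tick and cross are the log2 ratios of the libraries numbered 2 and 3. Hmgcs1 stands apart at −1.54, Idi1 at 0.26 is the only mevalonate enzyme above 0, and 9 of the 11 sterol branch genes lie between −0.15 and 0.17.

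The mevalonate pathway held the strongest decreases. Of its 7 enzymes 5 fell, 2 of them past the fold change limit, 1 rose and 1 was not past the adjusted p-value. Over all tested genes, 24.8% fell and 24.4% rose. Hmgcs1, which condenses acetyl-CoA with acetoacetyl-CoA (listed on chromosome 2 from 52431601 to 52445056 on rn6), measured 129 and 122 CPM in siScramble replicates 2 and 3 and 42.7 and 44.0 CPM in siTbk1 replicates 2 and 3. The groups were far apart and the libraries of a group close together. The groups differed by a log2 fold change of −1.54 (standard error 0.060, 95% interval −1.67 to −1.41, edgeR QL adjusted p = 4.0e-08), and 33 of the 13953 tested genes, itself included, had a value this low or lower. Hmgcs1 was called lower in all 15 alternatives that kept a fold change limit, with values from −1.58 to −1.48.

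Mvd, which makes isopentenyl diphosphate (chromosome 19 from 55258905 to 55268952), measured 23.3 and 27.6 CPM in control and 17.3 and 13.2 CPM in siTbk1-treated cells. Both siTbk1 libraries lay below both controls, but the libraries of a group differed in opposite senses, so that the log2 ratio was −0.44 between the libraries numbered 2 and −1.06 between those numbered 3. The fitted log2 fold change was −0.73 (standard error 0.12, 95% interval −0.98 to −0.48, edgeR QL adjusted p = 0.0003). Without siTbk1 replicate 3 it was −0.56, short of the fold change limit, and it did not pass a test against a fold change of 1.5 (adjusted p = 0.66, glmTreat of edgeR).

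Both kinases that act between these enzymes fell without reaching the fold change limit. Pmvk, phosphomevalonate kinase, measured 36.7 and 36.2 CPM in control and 25.3 and 26.1 CPM in siTbk1-treated cells. Libraries of a group lay close together, and the log2 fold change of −0.51 (standard error 0.066, edgeR QL adjusted p = 7.7e-05) stayed short of the limit in every alternative tried. Mvk, mevalonate kinase, was measured at low depth, with 6.56 and 7.70 CPM in control and 5.95 and 4.85 CPM in siTbk1-treated cells. Mvk had a log2 fold change of −0.39 (95% interval −0.68 to −0.09), with an adjusted p of 0.031 by edgeR QL and of 0.087 by DESeq2.

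Idi1, the isomerase that turns isopentenyl into dimethylallyl diphosphate directly after the step of Mvd, was the only enzyme of the 7 that rose. It measured 111 and 98.3 CPM in control and 124 and 128 CPM in siTbk1-treated cells, a log2 fold change of 0.26 (standard error 0.064, edgeR QL adjusted p = 0.0044). Fdps, farnesyl diphosphate synthase, fell by 11.2% (log2 fold change −0.17, edgeR QL adjusted p = 0.024), a difference not past the threshold with the replicate number as a block (adjusted p = 0.057). Acat2, the cytosolic thiolase that supplies acetoacetyl-CoA, had a log2 fold change of −0.18 (edgeR QL adjusted p = 0.066). The estimated counts of Fdps and Acat2 are not all whole numbers, and how their reads were assigned is not given in the sources used here, which makes them less certain.

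Ratios inside a library, which need no scaling between libraries, showed the unequal change. The count of Hmgcs1 per count of Idi1 in the same library was 1.17 and 1.24 in the control libraries and 0.346 and 0.344 in the siTbk1 libraries. Per count of Sqle it was 0.948 and 0.930 in control and 0.317 in both siTbk1 libraries. Per count of Acat2 it was 4.57 and 4.41 in control and 1.64 and 1.88 in siTbk1 libraries. Per count of Mvk it was 19.7 and 15.8 in control and 7.17 and 9.07 in siTbk1 libraries. Idi1 rose, which enlarges the change of the ratio to it. With 2 libraries against 2, an exact permutation test cannot give a p below 0.333, so these ratios are given without a test. Summed over the 7 enzymes, the level was 568 and 536 CPM in control and 445 and 434 CPM in siTbk1-treated cells. Without Hmgcs1 the sum was 438 and 414 CPM in control and 402 and 390 CPM in siTbk1-treated cells, so the log2 ratio of the group means went from −0.33 to −0.11.

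**Figure D2:**
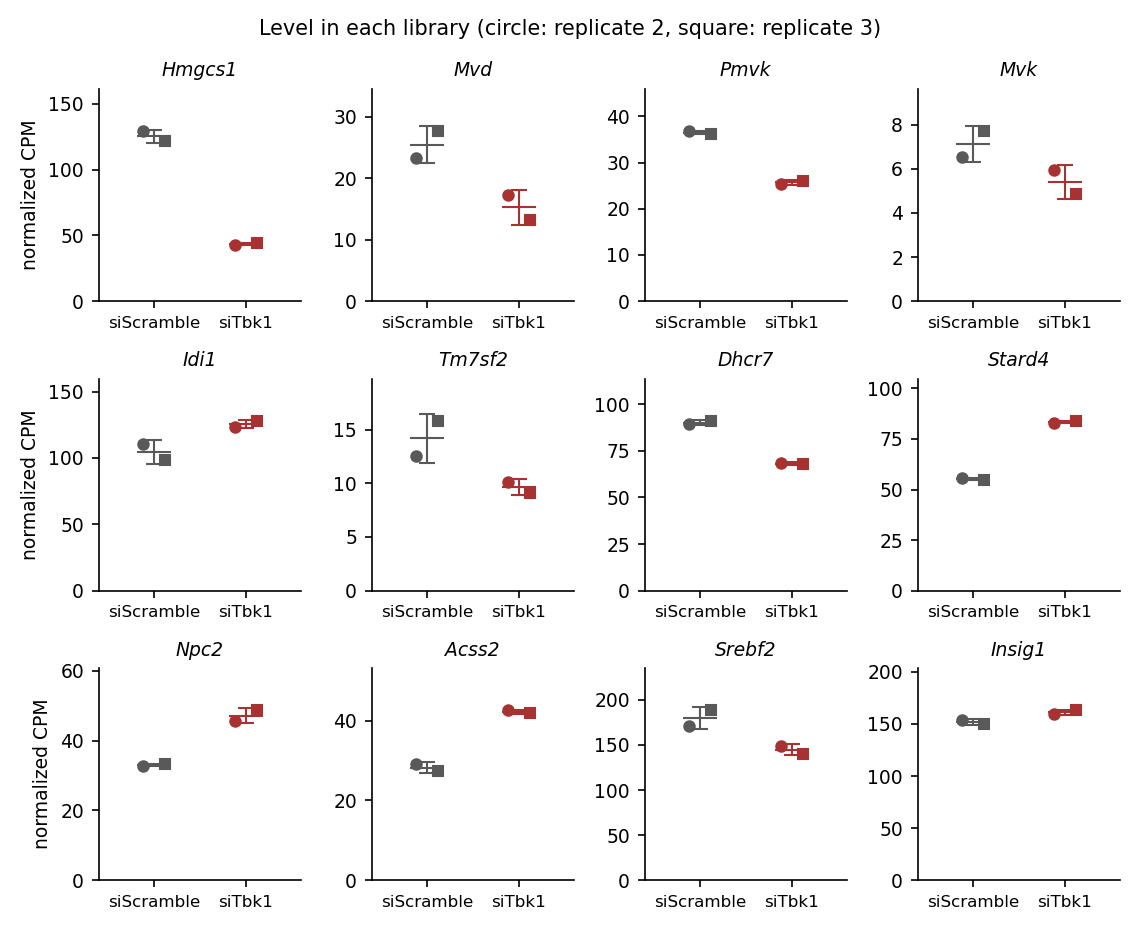
Normalized CPM of 12 members in each of the 4 libraries (circles, replicate 2; squares, replicate 3), with the mean and SD of each group as a bar; each axis starts at 0. The libraries of a group nearly coincide for Hmgcs1, Pmvk, Dhcr7 and Stard4 and are spread for Mvd, Mvk and Tm7sf2.

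In the sterol branch, 2 of 11 enzymes fell, 1 rose and 8 were not past the adjusted p-value. None was called by edgeR, DESeq2 or limma-voom, while 3 were lower and 1 higher at an unadjusted p under 0.05 (edgeR QL, against 27.9% and 27.5% of all genes), and the median log2 fold change was −0.08. Fdft1, squalene synthase, measured 67.4 and 63.0 CPM in control and 58.1 and 59.4 CPM in siTbk1-treated cells (log2 fold change −0.15, edgeR QL adjusted p = 0.056). Squalene epoxidase (Sqle), a control point of the branch, measured 136 and 131 CPM in control and 135 and 139 CPM in siTbk1-treated cells, and the groups overlapped. The 95% interval of its log2 fold change was −0.08 to 0.15.

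Dhcr7, the reductase of the last step to cholesterol, gave the clearest decrease of the branch. It measured 89.3 and 91.0 CPM in control and 68.6 and 67.7 CPM in siTbk1-treated cells, a log2 fold change of −0.40 (standard error 0.055, edgeR QL adjusted p = 0.00012). Tm7sf2, a sterol reductase of the inner nuclear membrane and endoplasmic reticulum, measured 12.5 and 15.8 CPM in control and 10.1 and 9.12 CPM in siTbk1-treated cells. Its control libraries differed by 0.33 on the log2 scale, and the log2 fold change of −0.55 (95% interval −0.80 to −0.29, edgeR QL adjusted p = 0.0021) moved to −0.71 and past the limit without siScramble replicate 2, to −0.64 without siTbk1 replicate 2 and to −0.60 with library size alone. Nsdhl, which takes part in removing the methyl groups of lanosterol, had a log2 fold change of 0.17 (edgeR QL adjusted p = 0.042), which was not past the threshold with library size alone (adjusted p = 0.12) or with DESeq2 (adjusted p = 0.089).

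Fdft1, Sqle and the 6 enzymes that follow were not past the threshold. The cyclase Lss (log2 fold change −0.12, 95% interval −0.26 to 0.01), the demethylase Cyp51 (−0.10, −0.21 to 0.01) and the methyl sterol oxidase Msmo1 (−0.08, −0.21 to 0.04) had values below 0, and the isomerase Ebp a value above it (0.10, −0.05 to 0.26). The desaturase Sc5d was at 0.03 (−0.10 to 0.17). The ketosteroid reductase Hsd17b7, with 3.82 to 4.57 CPM in the 4 libraries, was at −0.02, and its interval of −0.33 to 0.28 is the widest of the branch. The counts of Lss, Tm7sf2 and Dhcr7 also include fractions.

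Of the 5 regulators Srebf2 and Scap fell, and Insig1, Insig2 and Srebf1 did not pass the threshold. None was called by edgeR, DESeq2 or limma-voom. At an unadjusted p under 0.05 (edgeR QL) 2 were lower and 0 higher, against 27.9% and 27.5% of all tested genes. Srebf2, which encodes SREBP-2, measured 171 and 188 CPM in control and 149 and 141 CPM in siTbk1-treated cells, a log2 fold change of −0.31 (standard error 0.061, edgeR QL adjusted p = 0.0012). Scap, the escort of the SREBPs, measured 42.3 and 46.5 CPM in control and 39.6 and 36.1 CPM in siTbk1-treated cells (log2 fold change −0.23, edgeR QL adjusted p = 0.021). In both genes the control libraries were spread by 0.14 on the log2 scale, and the difference was larger between the libraries numbered 3 (log2 ratios −0.42 and −0.36) than between those numbered 2 (−0.20 and −0.09).

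Insig1, itself a well known target of SREBP-2, measured 154 and 150 CPM in control and 159 and 163 CPM in siTbk1-treated cells, a log2 fold change of 0.08 with a 95% interval of −0.03 to 0.20. With each library's trend along genomic span removed, Insig1 stood at 0.17 (edgeR QL adjusted p = 0.024). With the replicate number as a block as well, it was not past the threshold (edgeR QL adjusted p = 0.072). For Insig2, at 12.7 and 13.0 CPM in control and 14.3 and 13.5 CPM in siTbk1-treated cells, the value was 0.12 (−0.07 to 0.30). Srebf1, which encodes SREBP-1, measured 63.6 and 70.7 CPM in control and 68.2 and 60.2 CPM in siTbk1-treated cells, and its groups overlapped (log2 fold change −0.06, −0.22 to 0.10). Within a library, Insig1 made up 91.7% to 92.4% of the counts of the INSIG genes in all 4 libraries. Srebf1 made up 27.1% and 27.3% of the counts of the SREBF genes in control and 31.4% and 30.0% in siTbk1-treated cells. Fractional counts occurred for Insig1, Srebf1, Srebf2 and Scap.

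Genes of sterol movement changed in both directions. Of the 6, 3 rose and 2 fell (against 24.4% and 24.8% of all tested genes), and 1 was called. Stard4, a soluble sterol carrier between membranes (chromosome 18 from 25984638 to 25997556), measured 55.6 and 54.9 CPM in control and 82.9 and 83.9 CPM in siTbk1-treated cells. The siTbk1 libraries were both well above the controls, and the log2 fold change was 0.60 (standard error 0.056, 95% interval 0.47 to 0.72, edgeR QL adjusted p = 1.0e-05). The value lies near the fold change limit, and the call was lost with library size alone (log2 fold change 0.55) and in a test against a fold change of 1.5 (adjusted p = 1.0, glmTreat of edgeR).

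NPC1 and NPC2 hand cholesterol out of the lysosome, NPC2 in the lumen and NPC1 in the membrane. Npc2 measured 32.8 and 33.3 CPM in control and 45.5 and 48.6 CPM in siTbk1-treated cells, a log2 fold change of 0.51 (standard error 0.064, edgeR QL adjusted p = 6.7e-05), short of the limit. Npc1 measured 65.0 and 65.4 CPM in control and 69.3 and 66.4 CPM in siTbk1-treated cells, and its log2 fold change of 0.06 had a 95% interval of −0.07 to 0.18. The share of Npc1 in the counts of both genes was 66.4% and 66.3% in control and 60.4% and 57.7% in siTbk1-treated cells, so the genes of this lysosomal relay changed unequally.

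The exporter and the LXR genes also moved apart. Abca1, which loads cholesterol onto apolipoprotein A-I and is a target of LXR, measured 311 and 313 CPM in control and 382 and 396 CPM in siTbk1-treated cells (log2 fold change 0.32, standard error 0.050, edgeR QL adjusted p = 0.00028). Abca1 spans over 100 kb, and with each library's trend along genomic span removed its value was 0.21 (edgeR QL adjusted p = 0.0081). Nr1h2, which encodes LXRβ, measured 15.4 and 17.4 CPM in control and 12.5 and 12.2 CPM in siTbk1-treated cells (log2 fold change −0.41, standard error 0.090, edgeR QL adjusted p = 0.0026). Mylip, the LXR target that marks lipoprotein receptors for degradation, measured 13.3 and 12.2 CPM in control and 9.65 and 11.02 CPM in siTbk1-treated cells (log2 fold change −0.31, edgeR QL adjusted p = 0.022, and 0.068 by DESeq2). The LXR targets Abca1 and Mylip therefore differed in sign. Summed over the 6 genes, of which Abca1 made up 63.1% in control, the level was 493 and 496 CPM in control and 602 and 618 CPM in siTbk1-treated cells. The count of Stard4, which rose, per count of Mylip, which fell, was 4.19 and 4.49 in control and 8.59 and 7.61 in siTbk1-treated cells.

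**Figure D3:**
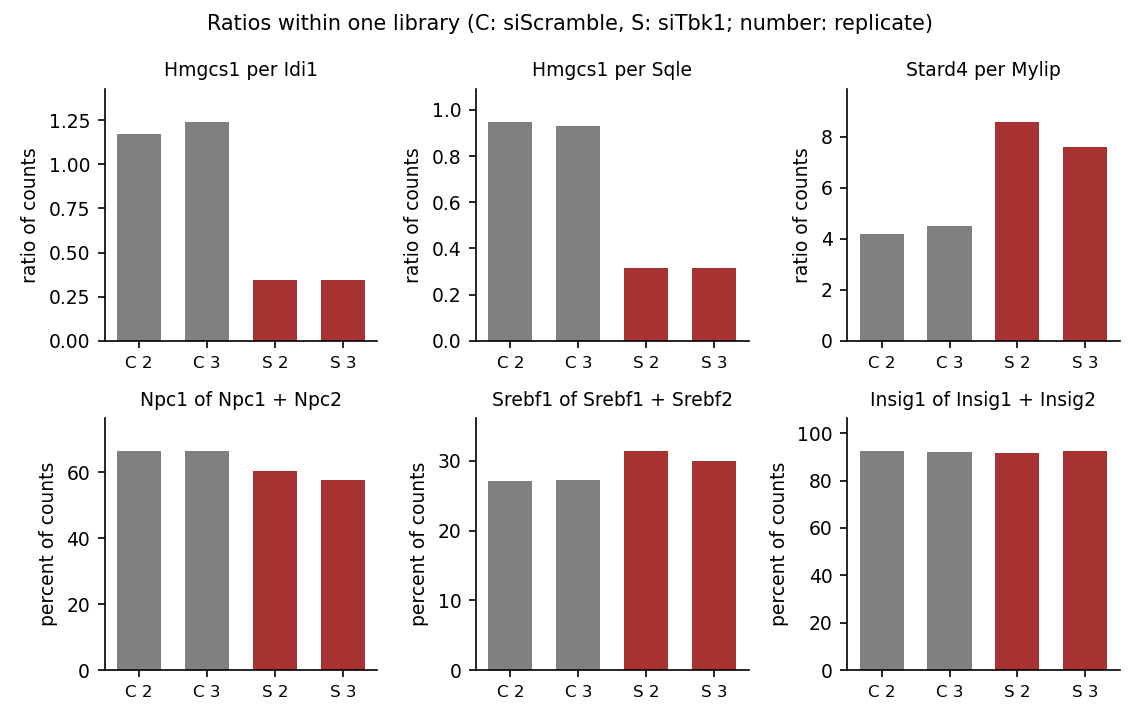
Ratios of counts inside each library, with siScramble replicates 2 and 3 (C 2, C 3) in grey and siTbk1 replicates 2 and 3 (S 2, S 3) in red; the upper panels give the count of a gene per count of another and the lower panels the percent share of a gene in the counts of a pair. Hmgcs1 per Idi1 goes from 1.17 and 1.24 to 0.346 and 0.344, and the share of Insig1 stays between 91.7% and 92.4%.

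Of the 7 fatty acid synthesis genes 3 rose (Acss2, Acaca and Me1), each by less than 1.5-fold, and none fell. Over all tested genes, 24.4% rose and 24.8% fell. None of the 7 was called by edgeR, DESeq2 or limma-voom. At an unadjusted p under 0.05 (edgeR QL) 4 were higher and 0 lower, against 27.5% and 27.9% of all tested genes. Acss2, the cytosolic enzyme that makes acetyl-CoA from acetate (chromosome 3 from 151032952 to 151075857), measured 29.1 and 27.3 CPM in control and 42.6 and 41.9 CPM in siTbk1-treated cells. The difference of 0.58 on the log2 scale (standard error 0.066, 95% interval 0.44 to 0.72, edgeR QL adjusted p = 3.4e-05) was just short of the limit, and it was called with upper quartile normalization (0.59), without siScramble replicate 2 (0.63) and without siTbk1 replicate 3 (0.59). Acly, the other cytosolic source of acetyl-CoA, which cleaves citrate, measured 2262 and 2264 CPM in control and 2367 and 2225 CPM in siTbk1-treated cells. Its groups overlapped, and the 95% interval of its log2 fold change was −0.10 to 0.14. The count of Acss2 per count of Acly in a library was 0.0129 and 0.0121 in control and 0.0180 and 0.0188 in siTbk1-treated cells.

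Acaca, the carboxylase that commits acetyl-CoA to fatty acids, measured 200.0 and 202 CPM in control and 235 and 233 CPM in siTbk1-treated cells (log2 fold change 0.22, edgeR QL adjusted p = 0.0031). Me1, malic enzyme, which supplies NADPH, measured 358 and 324 CPM in control and 391 and 408 CPM in siTbk1-treated cells (log2 fold change 0.23, edgeR QL adjusted p = 0.0070). Both genes span over 100 kb, and after removal of each library's trend along genomic span they stood at 0.10 (adjusted p = 0.13, edgeR QL) and 0.12 (adjusted p = 0.15, edgeR QL). Shorter members of the other groups shifted under this correction as well. Pmvk went from −0.51 to −0.43, Tm7sf2 from −0.55 to −0.45 and Nr1h2 from −0.41 to −0.31. Idi1 went from 0.26 to 0.36, Srebf2 from −0.31 to −0.39 and Scap from −0.23 to −0.31, and each of these genes stayed past the adjusted p-value. Ebp, not past it in the main analysis, went from 0.10 to 0.20 (adjusted p = 0.039, edgeR QL). With the replicate block added, Ebp was again not past it (adjusted p = 0.084, edgeR QL).

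Fasn, fatty acid synthase, measured 582 and 635 CPM in control and 610 and 531 CPM in siTbk1-treated cells. These groups overlapped, with a log2 fold change of −0.09 (95% interval −0.24 to 0.06). Scd2, a stearoyl-CoA desaturase, measured 2425 and 2313 CPM in control and 2650 and 2554 CPM in siTbk1-treated cells (log2 fold change 0.14, edgeR QL adjusted p = 0.055). Elovl6, an elongase of long fatty acids, was barely detected, at 0.396 and 1.49 CPM in control and 0.744 and 0.901 CPM in siTbk1-treated cells. Its estimated counts are fractional, the control libraries differed by 1.91 on the log2 scale, and the log2 fold change was −0.86 (called lower) without siScramble replicate 2 and 1.04 without siScramble replicate 3, so no direction is given for it. Those of Acly, Acaca and Me1 also include fractions. The sum over the 7 genes was 5857 and 5766 CPM in control and 6296 and 5994 CPM in siTbk1-treated cells.

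Of the 19 members past the adjusted p-value, 13 were past it in all 10 alternatives that changed the test, the scaling, the filter, the block (crossed pairing included) or the span correction. The other 6 were Mvk, Fdps, Nsdhl, Mylip, Acaca and Me1, whose values under an alternative that lost them are given above. Conversely, 7 of the 17 members not past it in the main analysis were past it in some of these alternatives, Scd2 in 6 of 10 and Fdft1 in 5 of 10. With 1 library left out, 6 of the 19 were lost in at least 1 fit, namely Mvk, Fdps, Nsdhl, Scap, Mylip and Me1. Scap stood at −0.16 without siScramble replicate 3 (adjusted p = 0.14, edgeR QL) or siTbk1 replicate 3 (adjusted p = 0.17, edgeR QL), and Me1 at 0.15 without siScramble replicate 3 (adjusted p = 0.087, edgeR QL). Fasn stood at −0.21 without siTbk1 replicate 2 (adjusted p = 0.019, edgeR QL). Of the 19 members, 12 stayed past the threshold in all 10 alternatives and in all 4 fits without a library. In the comparison of same-numbered libraries, 29 of the 36 members (80.6%) had the same sign in both, as had 82.9% of all tested genes. The libraries of a group differed by a median of 0.0957 on the log2 scale in control and 0.0578 in siTbk1-treated cells over the members, against 0.0925 and 0.0901 over all tested genes with a count in every library. Fractional counts occurred in 13 of the 36 members, against 3690 of the 13953 tested genes. None of the 3 called members had them, which are too few to compare with that share.

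**Figure D4:**
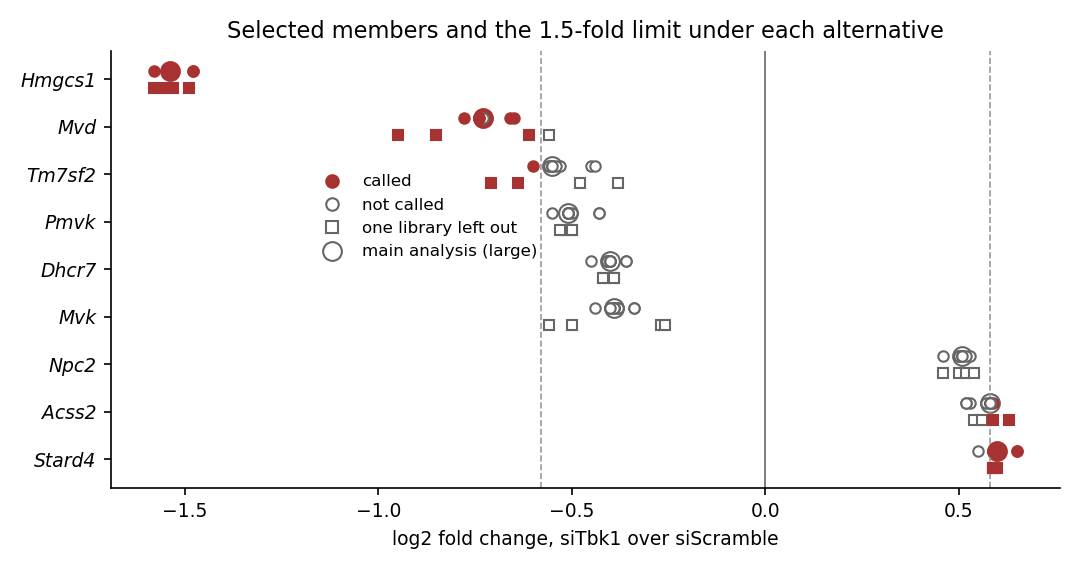
Log2 fold change of 9 members in the main analysis (large symbols) and under each alternative (circles), including those that leave out 1 library (squares), filled in red where called; dashed lines mark the 1.5-fold limits. Hmgcs1 stays between −1.58 and −1.48, whereas Mvd, Tm7sf2, Acss2 and Stard4 cross a limit in at least 1 alternative.

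Further genes of lipid metabolism were counted in 6 lists, of which 107 of 110 genes were tested. Of these, 3 were called lower (2.80%) and 5 higher (4.67%), below and near the shares of all tested genes. Without the fold change limit, 21 fell (19.6%) and 40 rose (37.4%), against the 24.8% and 24.4% given above. The genes of these lists had a median genomic span of 33.4 kb, against 20.1 kb over all tested genes. The part of span in these counts was not tested. The list of sterol esters, uptake and transport had 11 of 19 genes that rose and a median log2 fold change of 0.22, at a median span of 45.3 kb. Among those called with at least 10 CPM in the higher group, Soat1, which esterifies cholesterol for storage, measured 35.8 and 36.0 CPM in control and 65.9 and 64.1 CPM in siTbk1-treated cells (log2 fold change 0.86, edgeR QL adjusted p = 1.2e-06). Nceh1, which hydrolyses cholesterol esters, measured 65.5 and 61.7 CPM in control and 34.9 and 34.8 CPM in siTbk1-treated cells (log2 fold change −0.87, edgeR QL adjusted p = 1.5e-06). The other two genes of this kind were Elovl7, a fatty acid elongase (log2 fold change 0.96), and Dgat2, which makes triglyceride (−1.12). For the processing and degradation machinery of SREBP, 6 of 12 genes rose and 3 fell, with 0 called by edgeR, DESeq2 or limma-voom. At an unadjusted p under 0.05 (edgeR QL) 7 of these 12 were higher and 3 lower, against 27.5% and 27.9% of all tested genes. The isoprenoid and prenylation list had 4 of 12 genes that rose and 1 that fell, fatty acid oxidation 6 and 2 of 18, elongation, desaturation and activation of fatty acids 8 and 3 of 22, and glycerolipid and phospholipid synthesis 5 and 9 of 24.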

How the data were processed

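RNA-seq libraries were prepared from INS-1 832/13 cells transfected for 36 h with siScramble (2 samples) or siTbk1 (2 samples). For 15172 genes, the deposited values are estimated counts that the authors had not scaled between samples. The submitters' processing notes name STAR 2.6.1d, Partek and the build rn6, and how reads matching several genes were shared is not given in the sources used here. Counts are called fractional where an estimated count lies over 0.01 from a whole number in some library (25.8% of listed genes).

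Counts were rounded, filtered with filterByExpr (minimum count 10, removing 1219 genes), scaled by TMM (factors 0.982 to 1.02) and tested with edgeR 4.0.16 (quasi-likelihood, treatment only, Benjamini-Hochberg over all 13953 genes). Alternatives used DESeq2 1.42.0, limma 3.58.1, other scalings, filters and fold change rules, a replicate block, a loess correction (span 0.5) along genomic span, and each sample left out. Tests were checked on simulated data. R 4.3.3 and Python 3.11.15 were used. Intervals are at 95% from the moderated test. Promoter sequences are from RefSeq, assembly GRCr8, whereas gene positions are those of the deposited table. The members and lists were chosen with earlier results of these data known. Every member is named, with the value in every sample for called, paralogous and regulatory members, and other lipid genes are named where called with at least 10 CPM. Having 2 samples per group limits the precision, since libraries of a group differed beyond counting noise.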

Additional observations from a re-analysis of the deposited data

How the results depend on the processing

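Hmgcs1 and Mvd were called lower and Stard4 higher in the main analysis and with DESeq2, limma-voom, no filter, a stricter filter (10 counts or more in all 4 libraries), the replicate block and both span corrections. The members called lower numbered 11 and those called higher 8 with no fold change limit, and 1 and 0 with glmTreat, which tests against the limit itself. With upper quartile normalization 2 were higher, and with library size alone 0 were higher. Across the fits without 1 library, which assume that the lone library of a group varies like the others, 1 to 4 members were lower (1 without siTbk1 replicate 3, 4 without siScramble replicate 2) and 1 to 2 higher (2 without either of these). The median log2 fold change ranged in these fits from −0.50 to −0.26 for the mevalonate pathway, −0.10 to −0.01 for the sterol branch, −0.17 to 0.02 for the regulators, 0.17 to 0.19 for sterol transport and 0.10 to 0.17 for fatty acid synthesis. With library size alone the medians were −0.13 for the sterol branch, 0.14 for sterol transport and 0.09 for fatty acid synthesis. With the span correction they were −0.05, 0.10 and 0.10, and −0.04, 0.10 and 0.10 with the replicate block added. DESeq2, no filter and the stricter filter each gave 0.18 for sterol transport. The cause of these shifts was not tested. The replicate block left 2 members called lower and 1 higher. The numbers are not known to pair the samples: same-numbered deviations from the group means had a Pearson correlation of 0.0041 over all tested genes (−0.39 over the 7945 genes at a mean log2 CPM of 4 or more), and a crossed pairing, chosen after seeing the data, also gave 2 lower and 1 higher. Over all tested genes, 862 were called lower and 671 higher in the main analysis, 3459 and 3405 with no fold change limit, 101 and 163 with glmTreat, and 574 and 594 without siScramble replicate 3. Among single members, Mvd and Stard4 lost the call in 2 alternatives each, Tm7sf2 and Acss2 gained it in 3 each and Elovl6 in 1, and no called member changed sign.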
